A study of Mus musculus with 22 samples.

Results

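Connexins are the channel proteins of gap junctions, and Gja1, Gjb2, Gjb5 and Gjb6 are the 4 connexin genes followed here through postnatal hair growth in mouse back skin. They are 4 of the 8251 genes with a probe set of their own on the array, taken as a gene family, with every probe set that the platform annotation gives to exactly 1 of them. That made 7 of the 12422 probe sets that are not controls. Of the 7, 5 passed the filter on dim signals and were tested among 6211 probe sets. Gjb2 was read by 98423_at, Gjb5 by 104016_at, and Gja1 by 100064_f_at and 100065_r_at, named here its _f_at and _r_at probe sets. Gjb6 was read by 102571_at, and by 94391_at and 161607_r_at, which fell below the filter and are named here its second and its dimmest probe sets.

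Connexin subunits assemble into half-channels in the membrane, and half-channels of adjoining cells dock to form a pore that passes ions and small metabolites. Gja1 encodes Cx43, the most widely distributed connexin of skin, found in keratinocytes, hair follicle and dermis. Gjb2 encodes Cx26 and Gjb6 encodes Cx30, which in rodent skin are known chiefly from the hair follicle and from wounded or hyperproliferative epidermis, and whose human mutations cause deafness and disorders of skin and hair. Gjb5 encodes Cx31.1, a connexin of the upper epidermal layers.

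The study compared back skin of mice carrying DN-CLIM, a dominant-negative CLIM, one of the Ldb cofactors of LIM domain factors, with back skin of wild-type (WT) littermates. The keratin 14 promoter, active in basal keratinocytes of epidermis and follicle, drives the transgene. All mice were of strain CB6F1, taken at postnatal days 6, 14 and 23 (P6, P14 and P23). Per the design text, P6 and P14 lie within the first growth of the follicles and P23 in the first resting phase, telogen. Each genotype had 5 arrays at P6, 3 at P14 and 3 at P23. The design text gives 3 to 5 transgenic mice and as many WT littermates for each age, which matches the number of arrays, but no label says that 1 array is 1 mouse, and the p-values measure the spread between arrays, which may be in part technical. Values are log2 MAS5 signals, a level for 1 probe set relative to the other signals of its array. A percentile gives only where a probe set reads among the signals of its own array, which depends on its probes too, and is no measure of how much RNA one gene has beside another. The labelled tissue carried its keratinocyte markers: the 13 tested genes of differentiated epidermis had a mean log2 signal of 11.20 to 12.75 on every array, as a description of that list.

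Gjb2 and Gjb6 lie next to each other on chromosome 14 in the RefSeq annotation, with Gja3 on the other side of Gjb2, while Gjb5 is on chromosome 4 and Gja1 on chromosome 10. Their upstream sequences are shown as a description, and whether they bear on the signals was not tested. Each is the 250 bases before the RefSeq gene start (GRCm38.p6), written in the gene's direction: chr10:56377050-56377299 on the plus strand for Gja1, and on the minus strand chr14:57104703-57104952 for Gjb2, chr14:57133612-57133861 for Gjb6 and chr4:127358165-127358414 for Gjb5. Capitals mark the matches to the motifs searched on both strands.
Gjb2: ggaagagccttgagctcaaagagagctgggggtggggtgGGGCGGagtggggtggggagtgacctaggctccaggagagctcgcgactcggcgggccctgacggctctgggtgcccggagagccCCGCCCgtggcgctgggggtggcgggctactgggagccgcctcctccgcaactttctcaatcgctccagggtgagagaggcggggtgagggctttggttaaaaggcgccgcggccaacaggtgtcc
Gjb6: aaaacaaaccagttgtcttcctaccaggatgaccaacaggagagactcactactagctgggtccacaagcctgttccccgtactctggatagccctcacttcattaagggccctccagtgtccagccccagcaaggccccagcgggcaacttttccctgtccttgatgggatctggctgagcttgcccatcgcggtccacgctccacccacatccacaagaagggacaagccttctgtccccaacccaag
Gja1: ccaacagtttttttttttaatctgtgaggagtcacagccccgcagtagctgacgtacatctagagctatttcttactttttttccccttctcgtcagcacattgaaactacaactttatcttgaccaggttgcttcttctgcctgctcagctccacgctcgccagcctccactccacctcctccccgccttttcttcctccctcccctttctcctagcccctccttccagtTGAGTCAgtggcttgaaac
Gjb5: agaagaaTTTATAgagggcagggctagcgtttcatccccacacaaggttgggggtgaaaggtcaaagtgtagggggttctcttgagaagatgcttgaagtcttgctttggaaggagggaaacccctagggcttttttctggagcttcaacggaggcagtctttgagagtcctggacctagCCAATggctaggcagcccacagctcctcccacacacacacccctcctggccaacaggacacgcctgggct
The motifs were the GC box (GGGCGG), the TATA box (TATAAA), the CCAAT box (CCAAT), an AP-1 site (TGANTCA) and a homeodomain core (TAATTA), which do not overlap one another in these 4 sequences. The Gjb2 window held 2 GC boxes, a motif found in 32.7% of 32851 promoters of the same length. The Gja1 window held 1 AP-1 match, 13 to 19 bases before the start, a motif found in 6.75% of promoters. The Gjb5 window held a TATA box match on the other strand and a CCAAT box, found in 12.4% and 33.8% of promoters. Gjb6 held no match to any of the 5 motifs in this window, and none of the 4 held the homeodomain core, found in 4.84% of promoters. G and C made up 69.2% of the Gjb2 window, 56.8% for Gjb6 and 54.4% for Gjb5, above the median of 52.4% over all promoters, and less than that median for Gja1.

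Gjb2 showed a wide course over the 3 ages: it was among the brightest signals of the array while hair grew and fell 54.2-fold in DN-CLIM skin and 82.1-fold in WT skin by P23. Its log2 signals at P6 were 13.92, 13.96, 13.89, 13.68 and 13.71 in DN-CLIM skin and 13.98, 13.86, 13.83, 13.92 and 13.94 in WT skin. At P14 they were 14.58, 14.31 and 14.37 in DN-CLIM skin and 14.31, 14.50 and 14.55 in WT skin. At P23 they were 8.55, 8.83 and 8.60 in DN-CLIM skin and 7.90, 8.40 and 7.97 in WT skin. Within each genotype the arrays of the 3 ages did not overlap, with P14 highest and P23 lowest, and every P6 and P14 array stood at percentile 99.1 of its own signals or above. Over all probe sets, 33.3% in DN-CLIM skin and 33.1% in WT skin lay lower at P23 than at P14 without overlap, 25.6% and 27.3% lower at P23 than at P6, and 12.3% and 12.7% higher at P14 than at P6. At P23 Gjb2 stood between percentiles 62.1 and 66.9 in DN-CLIM skin and between 51.9 and 59.6 in WT skin.

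**Figure D1:**
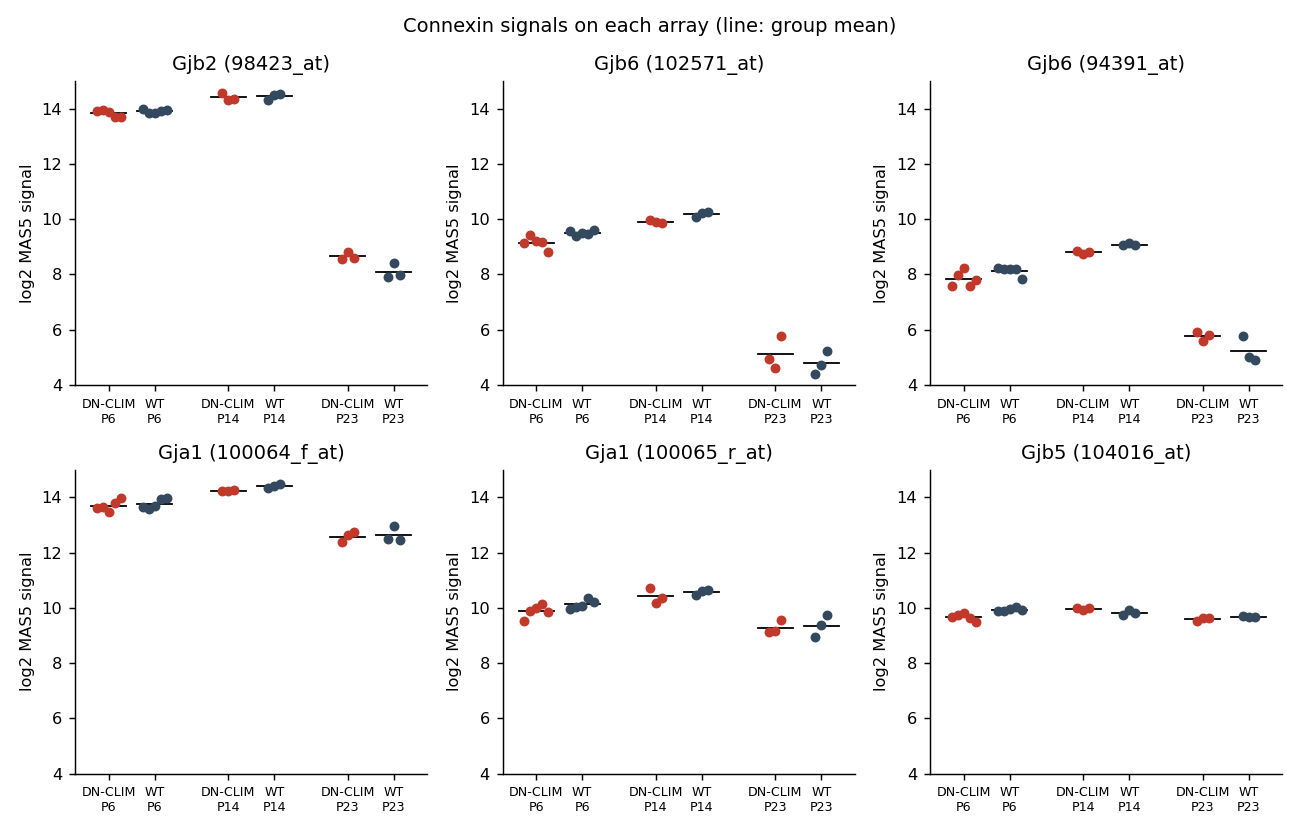
Log2 MAS5 signal (y axis) of 6 connexin probe sets on each of the 22 arrays, with DN-CLIM (red) and WT (dark blue) at P6, P14 and P23 on the x axis; each point is 1 array and each line a group mean. Gjb2 and both Gjb6 probe sets drop at P23 below every earlier array, both Gja1 probe sets drop less, and Gjb5 stays between 9.48 and 10.03.

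At P23 relative to P14 Gjb2 fell by 5.76 ± 0.12 on the log2 scale in DN-CLIM skin and fell by 6.36 ± 0.12 in WT skin (standard error, n = 3 and 3 arrays). The limma adjusted p-values, Benjamini-Hochberg over all 6211 probe sets, were 1.7e-20 in DN-CLIM skin and 4.1e-21 in WT skin. Ranked from the most negative change, Gjb2 was number 33 of 6211 in DN-CLIM skin and number 31 in WT skin. From P6 to P14 it had risen by a log2 difference of 0.59 in DN-CLIM skin (adjusted p = 0.00040, limma) and of 0.54 in WT skin (adjusted p = 0.00088). The P14 arrays enter both age comparisons, so the rise and the fall are not independent measurements.

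Gjb6, the chromosome 14 neighbour, followed a similar course. Its tested probe set had log2 signals of 9.16, 9.42, 9.20, 9.18 and 8.82 in DN-CLIM skin at P6 and 9.57, 9.41, 9.51, 9.46 and 9.62 in WT skin. At P14 they were 9.96, 9.89 and 9.87 in DN-CLIM skin and 10.10, 10.23 and 10.25 in WT skin. At P23 they were 4.93, 4.63 and 5.79 in DN-CLIM skin and 4.39, 4.73 and 5.25 in WT skin. Again the 3 ages did not overlap within a genotype, in the order P23, P6, P14 from low to high. The P23 readings were dim, from percentile 17.6 to 27.3 of their arrays in DN-CLIM skin and from 14.9 to 23.8 in WT skin, and spread more widely than the earlier ones.

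At P23 relative to P14, Gjb6 fell by 4.79 ± 0.23 (log2) in DN-CLIM skin (adjusted p = 1.0e-13, limma) and fell by 5.40 ± 0.23 in WT skin (adjusted p = 8.8e-15), or 27.6-fold and 42.3-fold. The size of this fall depends on how dim readings are treated: with 50 added to each signal it fell by 3.55 in DN-CLIM skin and fell by 3.96 in WT skin. The filter on dim signals used the mean over all 22 arrays, 8.33 for this probe set. Its P23 means, 5.12 in DN-CLIM skin and 4.79 in WT skin, lay below the threshold of 7.67. It thus entered the test through its P6 and P14 readings. In a fit without the filter, the fall had adjusted p-values of 3.0e-13 in DN-CLIM skin and 2.7e-14 in WT skin (limma). From P6 to P14 the signal rose by a log2 difference of 0.75 in DN-CLIM skin (adjusted p = 0.0098) and of 0.68 in WT skin (adjusted p = 0.021). The WT rise no longer passed the test without P14 replicate 2 (adjusted p = 0.073) or without P14 replicate 3 (adjusted p = 0.079).

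The second probe set of Gjb6 gave the same order of ages, with a smaller drop. Its log2 signals at P6 were 7.57, 7.99, 8.23, 7.60 and 7.81 in DN-CLIM skin and 8.22, 8.19, 8.21, 8.21 and 7.85 in WT skin. At P14 they were 8.86, 8.75 and 8.80 in DN-CLIM skin and 9.06, 9.13 and 9.06 in WT skin, and at P23 they were 5.93, 5.59 and 5.82 in DN-CLIM skin and 5.76, 5.01 and 4.91 in WT skin. All P23 arrays lay below all others, and all P14 arrays above all P6 arrays. In a fit without the filter on dim signals it fell by 3.02 in DN-CLIM skin (adjusted p = 5.2e-10, limma) and fell by 3.86 in WT skin (adjusted p = 7.2e-12) at P23 relative to P14. The dimmest Gjb6 probe set ranged from -0.20 to 5.45 (log2) with every array within the lowest 21.4% of its signals, and no age or genotype stood apart in it.

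Gja1 was also read among the brightest signals of the array, and its signal stayed bright at P23. The probe sequences of its probe sets were not examined here, and their signals may include related transcripts. Its _f_at probe set had log2 signals of 13.60, 13.65, 13.45, 13.78 and 13.97 in DN-CLIM skin at P6 and 13.65, 13.59, 13.69, 13.93 and 13.99 in WT skin. At P14 they were 14.22, 14.23 and 14.25 in DN-CLIM skin and 14.35, 14.41 and 14.49 in WT skin. At P23 they were 12.37, 12.62 and 12.73 in DN-CLIM skin and 12.49, 12.98 and 12.46 in WT skin. The ages did not overlap, with P14 highest and P23 lowest, but at P23 the signal was still at percentile 98.3 or above on every array.

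The Gja1 signal on the _f_at probe set fell by 1.66 ± 0.14 (log2, standard error) in DN-CLIM skin and fell by 1.77 ± 0.14 in WT skin at P23 relative to P14, or 3.16-fold and 3.42-fold (adjusted p = 2.5e-09 and 7.8e-10, limma). It is one of the brightest probe sets, and quantile normalization between arrays made it a log2 difference of -1.20 in DN-CLIM skin and of -1.18 in WT skin, still past the test. From P6 to P14 it rose by a log2 difference of 0.55 in DN-CLIM skin (adjusted p = 0.0032) and of 0.65 in WT skin (adjusted p = 0.00082). The _r_at probe set ran from 9.52 to 10.13 at P6, 10.18 to 10.72 at P14 and 9.11 to 9.56 at P23 in DN-CLIM skin. In WT skin it ran from 9.96 to 10.37 at P6, 10.48 to 10.65 at P14 and 8.95 to 9.74 at P23. It fell by 1.14 in DN-CLIM skin (adjusted p = 2.0e-05, limma) and fell by 1.23 in WT skin (adjusted p = 8.2e-06) at P23 relative to P14. Its rise from P6 to P14 was 0.54 in DN-CLIM skin (adjusted p = 0.019), lost without P6 replicate 1 (adjusted p = 0.050) or P14 replicate 1 (adjusted p = 0.131) of that genotype, while in WT skin the difference was 0.46 with an adjusted p of 0.054.

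Gjb5 moved little, staying within 9.48 to 10.03 (log2) over all 22 arrays. Its signals at P6 were 9.66, 9.74, 9.82, 9.64 and 9.48 in DN-CLIM skin and 9.88, 9.88, 9.97, 10.03 and 9.93 in WT skin. At P14 they were 9.99, 9.93 and 9.99 in DN-CLIM skin and 9.74, 9.93 and 9.82 in WT skin, and at P23 they were 9.53, 9.62 and 9.65 in DN-CLIM skin and 9.70, 9.66 and 9.66 in WT skin. The order of ages differed between the genotypes: P14 was highest in DN-CLIM skin and P6 in WT skin. At P23 relative to P14, Gjb5 fell by 0.37 ± 0.10 in DN-CLIM skin (adjusted p = 0.0028, limma), and in WT skin the difference was -0.16 (95% interval -0.36 to 0.05, adjusted p = 0.18). At P14 relative to P6 it rose by 0.30 in DN-CLIM skin (adjusted p = 0.014), which did not pass when the 2 groups were fitted alone (adjusted p = 0.11), and in WT skin the difference was -0.11 (adjusted p = 0.43). The difference between the genotypes in this early change was 0.41 and did not pass its own test (adjusted p = 0.58).

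Counted over the 5 tested probe sets, 5 fell in DN-CLIM skin and 4 in WT skin at P23 relative to P14. Over all probe sets 27.2% were called lower in DN-CLIM skin and 27.1% in WT skin. At P14 relative to P6, 5 rose in DN-CLIM skin and 3 in WT skin, beside 12.1% and 9.43% of all probe sets called higher. At P23 relative to P6, 4 were lower in DN-CLIM skin and 5 in WT skin, beside 28.2% and 28.3% of all probe sets. In that comparison Gjb2 was lower by a log2 difference of -5.17 in DN-CLIM skin and -5.81 in WT skin, and Gjb6 by -4.04 and -4.72. The _f_at probe set of Gja1 was lower by -1.12 in DN-CLIM skin and -1.13 in WT skin, and Gjb5 by -0.26 in WT skin (adjusted p = 0.014, limma), with -0.07 in DN-CLIM skin (adjusted p = 0.50).

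**Figure D2:**
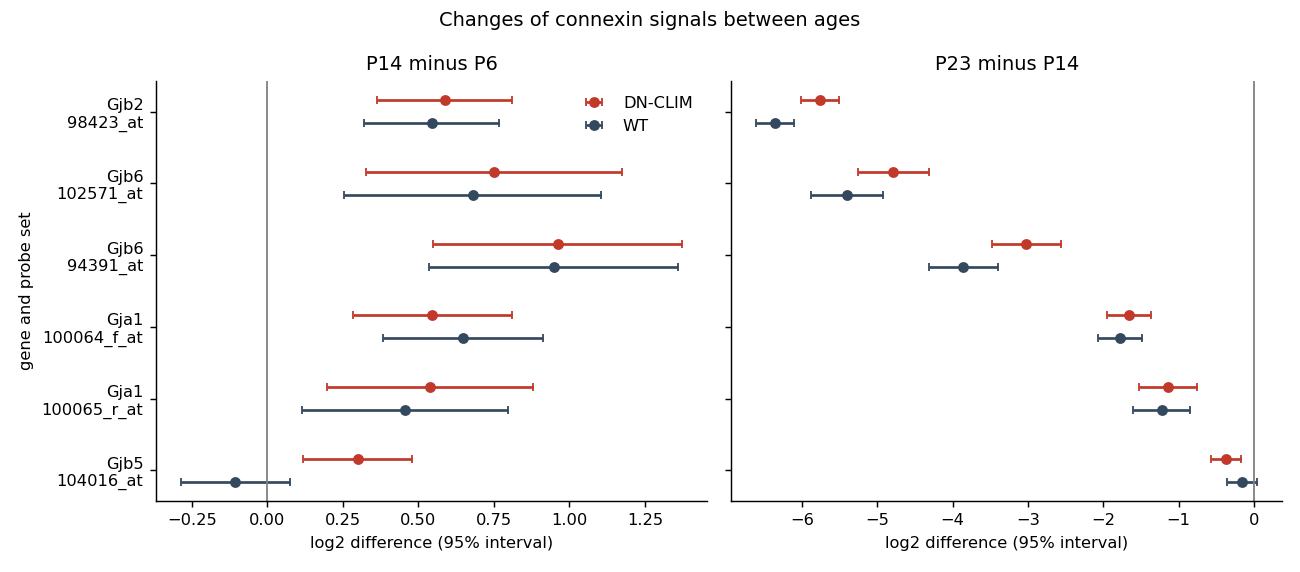
Log2 difference with its 95% interval (x axis, drawn on different scales in the 2 panels) at P14 minus P6 (left) and P23 minus P14 (right) for 6 connexin probe sets (y axis), in DN-CLIM (red) and WT (dark blue) skin; the second Gjb6 probe set comes from the fit without the filter. The drop of Gjb2 and Gjb6 at P23 does not meet the intervals of Gja1 and Gjb5 in either genotype.

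In bulk skin, fewer cells of a type and less RNA per cell cannot be told apart. All 16 tested genes of the hair shaft list (keratins and keratin-associated proteins of the fibre) fell at P23 relative to P14 in each genotype, with a median log2 difference of -5.98 in DN-CLIM skin and -6.18 in WT skin, beside a median of 0.00 over all probe sets. Their summed signal at P23 was 5385 to 5755 in DN-CLIM skin and 5463 to 5881 in WT skin, and at P14 340058 to 410919 in DN-CLIM skin and 356266 to 408661 in WT skin. Of the 8 inner root sheath genes, 7 fell in each genotype, with medians of -5.92 and -5.90. Of the 11 keratinocyte stress response genes (such as Krt6a, Krt16, Krt17 and the Sprr genes), 8 fell and 1 rose in DN-CLIM skin, and 10 fell in WT skin. Over all probe sets 27.2% were called lower in DN-CLIM skin and 27.1% in WT skin. The part of these lists in the falls of Gjb2 and Gjb6 was not tested.

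Of the lists of other cell types, some rose, some fell and some were divided. From P14 to P23, 12 of 14 dermal fibroblast genes rose in DN-CLIM skin and 13 in WT skin, with medians of 1.12 and 1.36. In WT skin 13 of 14 skeletal muscle genes rose and 1 fell. There 8 of 9 macrophage and mast cell genes, 5 of 9 vessel genes and 2 of 4 adipocyte genes rose. Of 5 melanocyte genes 3 fell and 1 rose in WT skin, and 2 of 3 erythroid genes fell. Over all 6211 probe sets, 3364 were called in either direction in WT skin, 1684 of them lower. In DN-CLIM skin 3372 were called, 1689 of them lower. The keratinocyte lists were divided in WT skin: 6 basal genes rose and 2 fell of 10, and 5 genes of differentiated epidermis rose and 6 fell of 13. Since every array was scaled to one trimmed mean, a level is relative to this changing mixture.

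**Figure D3:**
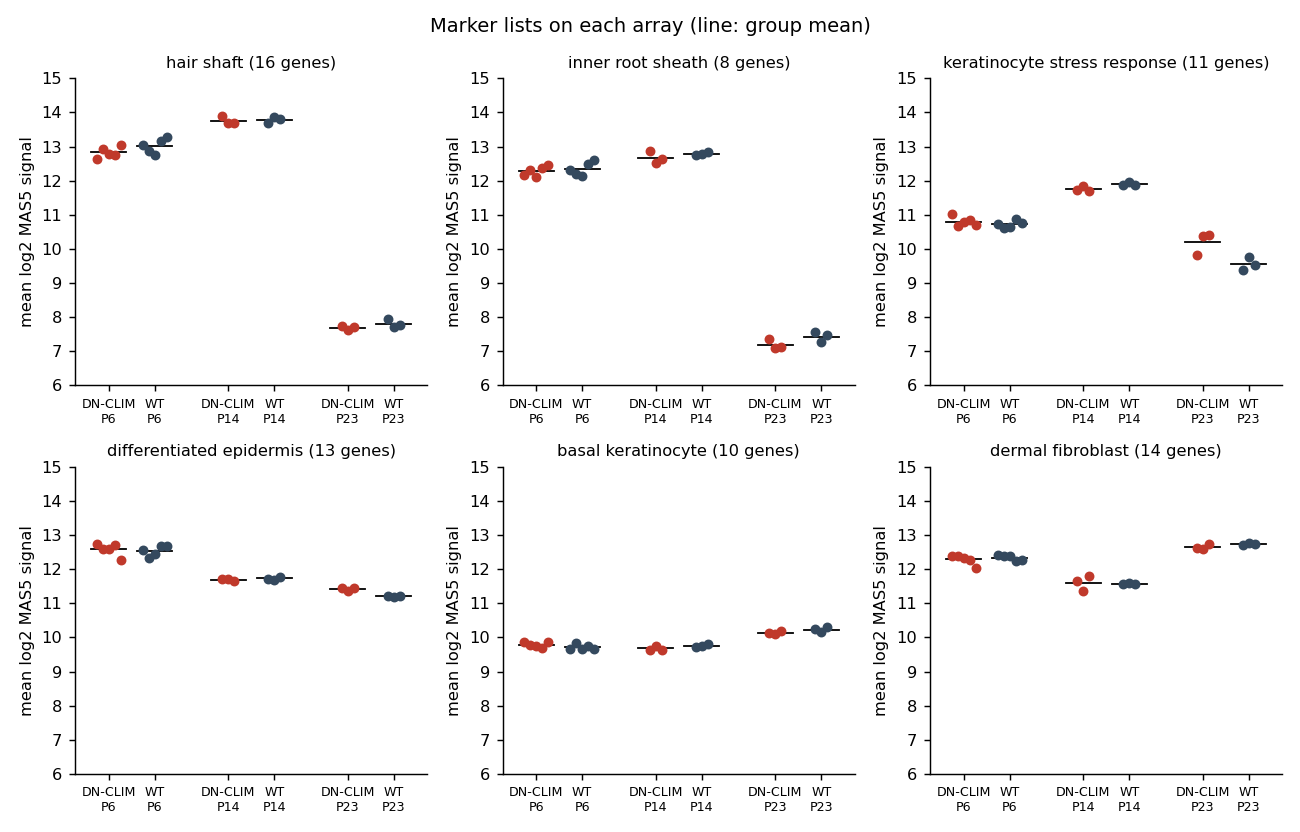
Mean log2 MAS5 signal (y axis) over the tested genes of 6 marker lists on each of the 22 arrays, with DN-CLIM (red) and WT (dark blue) at P6, P14 and P23 on the x axis; points are arrays and lines group means. The hair shaft and inner root sheath lists drop at P23 as Gjb2 and Gjb6 do, and the stress response list is higher in DN-CLIM than in WT skin at P23.

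The genes whose profiles over the 22 arrays came nearest to Gjb2 were Krt35, S100a3 and Krt81. Likeness was measured as the root mean square difference of log2 signals after centring each probe set, which was 0.31 for Krt35, 0.34 for S100a3 and 0.35 for Krt81, beside an SD of 2.62 for Gjb2 itself. Krt35 and Krt81 encode keratins of the hair shaft and S100a3 a calcium-binding protein of the hair cuticle. For Gjb6 the nearest were Krt81 (0.42), Ctse (0.43), which encodes the protease cathepsin E, and Krt35 (0.47), beside an SD of 2.16. Between P14 and P23 Krt35 differed by -5.40 (log2) in DN-CLIM skin and -5.65 in WT skin, beside -5.76 and -6.36 for Gjb2. Krt35 was chosen for likeness over these same arrays, so a similar fall follows from the choice and is no separate finding. Gjb2 and Gjb6 differed from each other by 0.56, more than either did from its nearest hair genes, while Gjb2 and Gja1 differed by 1.96.

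Gja1 and Gjb5 had other neighbours in profile. The nearest to Gja1 were Akirin1 (0.16), Ppp2r1b (0.19), a scaffold subunit of protein phosphatase 2A, and Ubfd1 (0.20), beside an SD of 0.68 for Gja1. For Gjb5 they were Cope, a coatomer subunit, Drg1 and Zfyve19 (each 0.12), hardly below the SD of 0.16 of Gjb5, so this measure singled out no close match for it. Because a centred difference is small for any gene that moves little, these values are comparable only within 1 connexin.

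**Figure D4:**
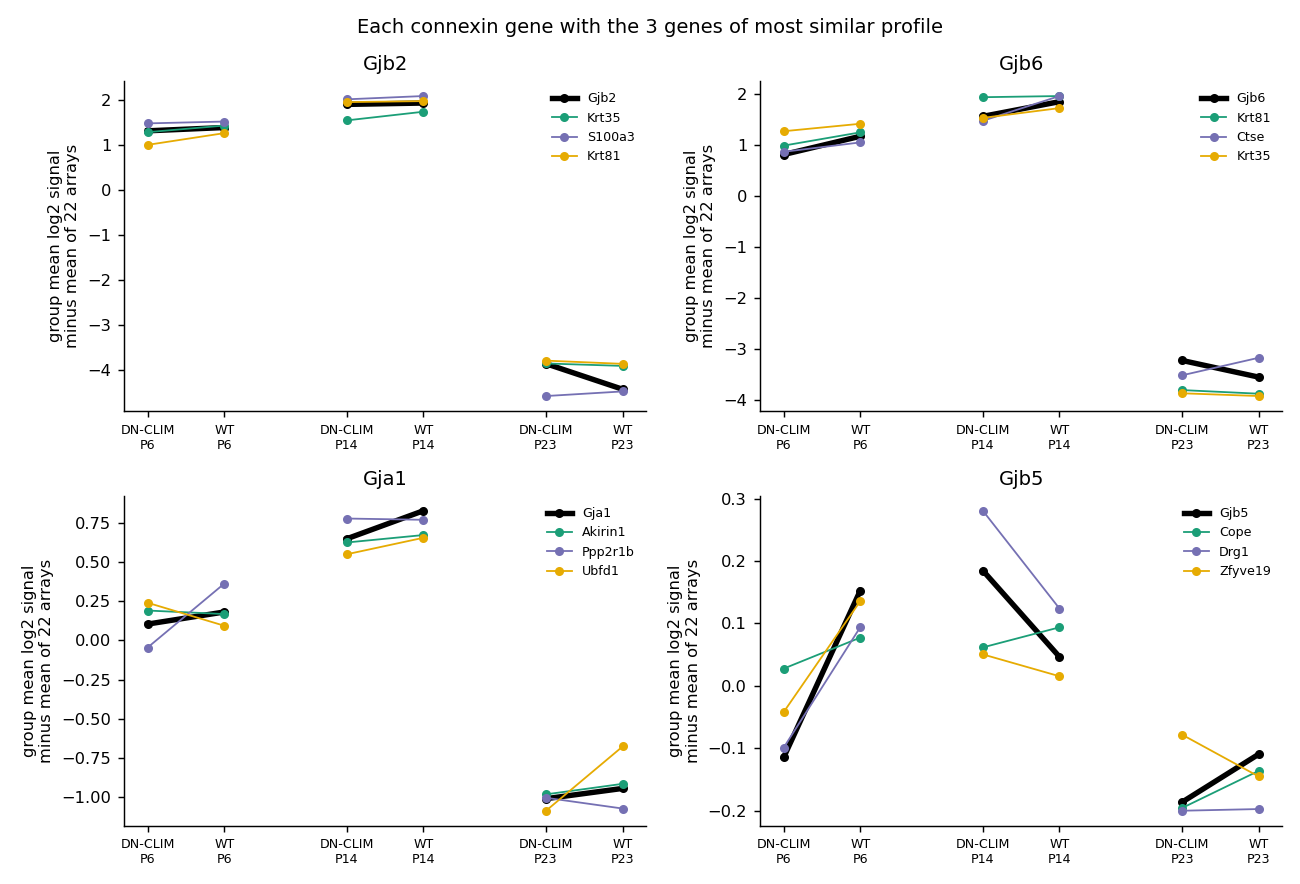
Group mean log2 signal minus the mean of all 22 arrays (y axis, on its own scale in each panel) for each connexin gene (black) and the 3 genes of most similar profile (colours), with DN-CLIM and WT joined at P6, P14 and P23 on the x axis. The genes near Gjb2 and Gjb6 fall by several log2 units at P23, those near Gja1 by less than 2.

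Genotype made no difference that passed the test for any connexin: 0 of the 5 tested probe sets were called at P6, at P14 or at P23 by limma. Of all probe sets 0.0322%, 0.0644% and 0.161% were called at these ages, so calls were rare throughout. At an unadjusted p under 0.05, there was 1 connexin probe set at P6 (Gjb5), 0 at P14 and 1 at P23 (Gjb2), beside 508, 389 and 284 of all 6211 probe sets. Averaged over the 3 ages 0 of 5 were called, beside 0.177% of all probe sets, with 1 at an unadjusted p under 0.05 (Gjb2, log2 difference 0.16, adjusted p = 0.63), beside 436 of 6211.

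**Figure D5:**
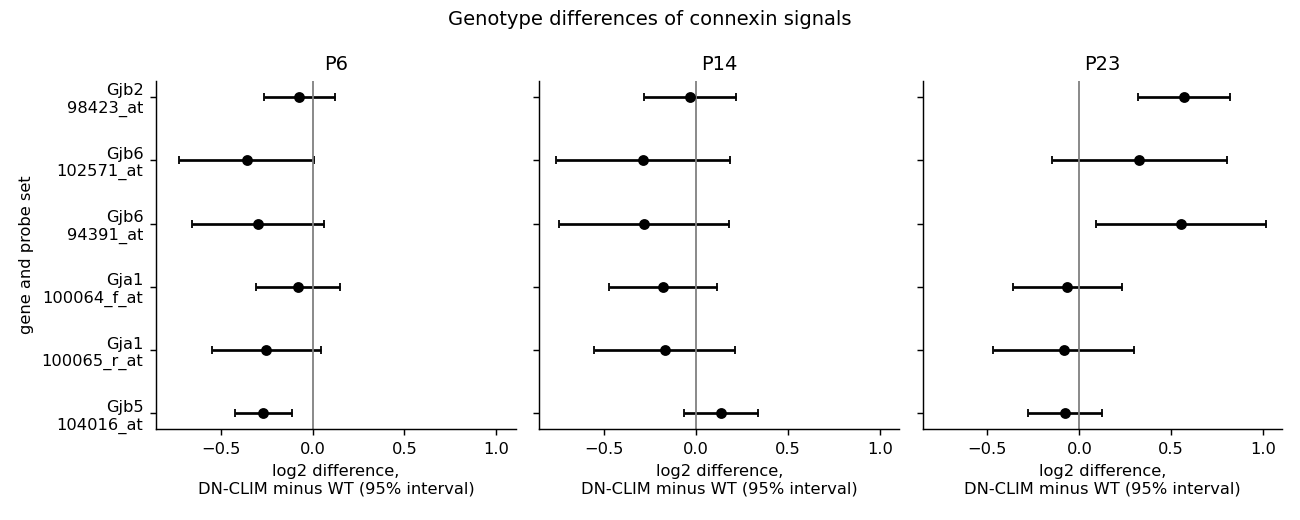
Log2 difference DN-CLIM minus WT with its 95% interval (x axis) for 6 connexin probe sets (y axis) at P6, P14 and P23; the second Gjb6 probe set comes from the fit without the filter. The intervals of Gjb5 at P6 and of Gjb2 and the second Gjb6 probe set at P23 leave out 0, and no difference passed adjustment over all probe sets.

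The largest genotype difference on a tested connexin probe set was that of Gjb2 at P23, after its fall. On the linear scale the Gjb2 signals were 374, 454 and 388 in DN-CLIM skin and 240, 338 and 250 in WT skin. They did not overlap, as was so for 14.9% of all probe sets at P23. The means were 8.66 ± 0.15 and 8.09 ± 0.27 (log2, SD, n = 3 each), a difference of 0.57 ± 0.12 or 1.48-fold (95% interval 0.32 to 0.82). The limma adjusted p was 0.061, and the difference was number 36 of 6211 from the most positive. The call turned on processing and on 1 array: the adjusted p was 0.022 with quantile normalization, 0.0060 with array weights and 0.010 without WT P23 replicate 2, where the difference was 0.72. Over the other ways of leaving out 1 array the adjusted p reached 0.53.

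Whether the genotype difference of Gjb2 itself changed with age was tested directly. The difference at P23 exceeded that at P6 by 0.64 (adjusted p = 0.33, limma) and that at P14 by 0.60 (adjusted p = 0.42), so neither passed. Without WT P23 replicate 2 the excess over P6 was 0.80 with an adjusted p of 0.025. Of the 3 tests of change between ages, 0 of 5 connexin probe sets were called in each, beside 0.0161% of all probe sets for P14 against P6, 0% for P23 against P14 and 0.0161% for P23 against P6. At an unadjusted p under 0.05 there were 1, 1 and 2 of the 5, beside 416, 317 and 303 of 6211.

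At P23, 0.161% of all probe sets were called between the genotypes, and the median log2 difference over all of them was 0.00. Of the stress response genes, all 11 had a positive log2 difference between DN-CLIM and WT skin at P23, with a median of 0.52. Among them 2 passed the test, Sprr1a (1.08, adjusted p = 0.0090, limma) and Krt16 (1.69, adjusted p = 0.024). The summed signal of the 11 genes was 27941 to 34002 in DN-CLIM skin and 21653 to 24262 in WT skin. Of the 16 hair shaft genes 8 had a positive and 8 a negative difference at P23, with 1 called lower, Krtap3-1 (-0.91, adjusted p = 0.047), and a median of -0.06. Among the other lists at P23, all 3 erythroid genes had a positive difference (median 0.52) and 9 of 13 genes of differentiated epidermis did (median 0.20), while 13 of 14 dermal fibroblast genes had a negative one (median -0.10), with 0 called in each. Of the 10 basal keratinocyte genes 1 was called lower, and the median was -0.02. The genes nearest to Gjb2 in profile had smaller genotype differences at P23: Krt35 differed by 0.05, S100a3 by -0.10 and Krt81 by 0.07, none past the test. These genes were chosen for likeness over the same arrays, P23 included, so their differences are given as a description only. The part of these lists in the Gjb2 difference was not tested.

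At P6 the signals of Gjb5 did not overlap between the genotypes, at 9.67 ± 0.13 in DN-CLIM skin and 9.94 ± 0.06 in WT skin (SD, n = 5 each), while 0.95% of all probe sets did not overlap. The difference was -0.27 ± 0.08 with an adjusted p of 0.33 (limma). It was -0.17 within arrays numbered 1 to 3 and -0.42 within arrays 4 and 5, a split known from an earlier analysis of these data. At P14 the Gjb5 difference was 0.14 (adjusted p = 0.89) and at P23 -0.08 (adjusted p = 0.999). The Gjb5 arrays at P23 were just apart, as were those of 14.9% of all probe sets.

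Gjb6 had lower mean signals in DN-CLIM skin on its tested and second probe sets at P6 and P14. On its dimmest probe set the DN-CLIM means were higher, with overlapping arrays: 2.12 beside 1.94 in WT skin at P6, and 4.03 beside 2.43 at P14. On the tested probe set the difference was -0.36 at P6 (95% interval -0.73 to 0.01, adjusted p = 0.62, limma) and -0.29 at P14 (95% interval -0.76 to 0.19, adjusted p = 0.90), and on the second probe set it was -0.30 and -0.28. At P23 the differences were 0.33 on the tested probe set (95% interval -0.15 to 0.80) and 0.55 on the second (95% interval 0.09 to 1.02), neither past the test and both with overlapping arrays. On the tested probe set the P23 difference ran from -0.010 to 0.57 when 1 array was left out. For Gja1 the differences on the _f_at probe set were -0.08, -0.18 and -0.07 at P6, P14 and P23, with 95% intervals lying between -0.47 and 0.23. On the _r_at probe set they were -0.25 at P6 (95% interval -0.55 to 0.04, adjusted p = 0.67, limma), -0.17 at P14 (adjusted p = 0.95) and -0.09 at P23 (adjusted p = 0.999). At P14 the arrays of Gja1 _f_at and of the tested Gjb6 probe set did not overlap between genotypes, 2 of 5 probe sets, where 15.2% of all probe sets were apart. At P23 those of Gjb2 and Gjb5 did not, where 14.9% of all probe sets were apart.

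Of the other connexins and pannexins listed, 7 were on the array with a probe set of their own and 1, Gja5, was tested. Gja5 encodes Cx40, a connexin of arterial endothelium. It ranged from 6.78 to 8.55 (log2) over all arrays, and it passed in 0 of the 13 comparisons (limma). Its unadjusted p was under 0.05 in 2, DN-CLIM against WT at P6 and P14 against P6 in DN-CLIM skin. Over all 6211 probe sets 508 and 2399 had such a p in these comparisons. Gja3, the other neighbour of Gjb2, ranged from 2.95 to 7.04, and Gja4, Gja10, Gjb1, Gjc1 and Gjd2 also stayed below the filter.

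Proteins that bind, traffic or phosphorylate connexins were followed as a list of 30, of which 24 were on the array and 17 tested. At P23 relative to P14, 3 rose and 8 fell in DN-CLIM skin and 3 rose and 10 fell in WT skin, with medians of -0.43 and -0.61. Over all probe sets 3372 of 6211 were called in either direction in DN-CLIM skin and 3364 in WT skin, with a median of 0.00. Cav1, the caveolin that binds connexins in membrane rafts, rose by a log2 difference of 2.41 in DN-CLIM skin and of 1.96 in WT skin (adjusted p = 1.7e-11 and 4.5e-10, limma). Csnk1d, a casein kinase that phosphorylates Cx43, fell by 1.34 in DN-CLIM skin and fell by 1.30 in WT skin. The adherens junction genes Cdh3 and Ctnna1 also fell, Cdh3 with differences of -1.39 in DN-CLIM skin and -1.02 in WT skin and Ctnna1 with -0.65 and -0.84.

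At P14 relative to P6, 4 of the 17 rose and 4 fell in DN-CLIM skin, and 3 rose and 4 fell in WT skin. Over all probe sets 1664 of 6211 were called in either direction in DN-CLIM skin and 1290 in WT skin. Cav1 fell by 1.30 in DN-CLIM skin and fell by 1.32 in WT skin, opposite to its change at P23, and Ccn3, which encodes a matricellular protein that binds Cx43, fell by 1.60 in DN-CLIM skin and fell by 1.56 in WT skin. Between the genotypes 0 of 17 were called at P6, P14 or P23 by limma, with 1, 2 and 1 at an unadjusted p under 0.05. Over all 6211 probe sets 2, 4 and 10 were called at these ages, and 508, 389 and 284 had an unadjusted p under 0.05. The smallest p at P23 belonged to the kinase gene Prkcd (log2 difference 0.24, adjusted p = 0.70).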

How the data were processed

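Back skin RNA of 22 samples in 6 groups was hybridised to single-colour oligonucleotide arrays. The deposited table holds 1 intensity per probe set and array, made with MAS5, per the submitters' processing notes; no version of it is given in the sources used. The 2% trimmed mean was 500.2 to 500.3 on every array, which shows a common scaling. All 22 columns belonged to a sample, and the number of arrays limits the precision.

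Signals were taken as log2 with no further normalization, and a difference of log2 signals is a fold change on that scale. The 66 array controls were left out. Genes were named for the 10855 probe sets that have 1 gene in the platform annotation, and not for the 396 with several or the 1237 with none. Probe sets with a mean log2 signal at or above the median (7.67) were tested. limma 3.58.1 (R 4.3.3) took all 22 arrays in one model of 6 group means with a variance trend, with Benjamini-Hochberg adjustment over 6211 probe sets and a threshold of 0.05, and was tested on simulated data. Named genes are the members, the other tested connexins, up to 4 genes a list and comparison with the smallest p, and the 3 nearest in profile for each member. A gene of a list is its brightest tested probe set. The members, lists and the split of P6 arrays were chosen with earlier results of these data known. Same-numbered arrays deviated together with correlations of -0.005 to 0.19 at P6, -0.05 to 0.03 at P14 and 0.06 to 0.25 at P23. The array of the other genotype that correlated best had the same number for 4 of 10 arrays at P6, 2 of 6 at P14 and 6 of 6 at P23. The main fit did not take the numbers to pair arrays, and a replicate block was run as an alternative. Alternatives were quantile normalization, 2 other filters, 50 added to each signal, no variance trend, array weights, the compared groups alone, a replicate block, the P6 split and leaving out each array. Motifs and neighbouring genes came from RefSeq tables of GRCm38.p6, in which all 4 genes were found.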

Additional observations from a re-analysis of the deposited data

Results flagged for a closer look

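The second Gjb6 probe set, which was below the filter, read 7.85 (log2) on WT P6 replicate 5, while the other 4 WT arrays of that age lay between 8.19 and 8.22. Its gap to the nearest array was 0.91 of the group's range, above the Dixon value of 0.71 for 5 arrays. Of 14 sets of arrays looked at in this way it was the 1 that stood out, and chance gives about 1 in 20. The tested Gjb6 probe set read 9.62 on the same array, the highest of its group.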

How the results depend on the processing

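The P23 falls of Gjb2, Gjb6 and Gja1 passed the test under every alternative run that kept their probe set, and the counts of connexin calls stayed within 1.5 times of those reported except as follows. The count for DN-CLIM against WT at P23 became 1 with quantile normalization and with array weights, and ran from 0 to 1 when 1 array was left out. The count for DN-CLIM at P14 against P6 became 3 with the 2 groups fitted alone. The genotype difference at P23 less that at P6 gave 0 to 1 when 1 array was left out. The filter at the 75th percentile dropped Gjb6. The cause of these changes was not tested.

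Some genotype differences, and some of their changes between ages, changed sign, and none of these had passed the test. Gjb2 was 0.034 within P6 arrays 1 to 3, and at P14 0.066 with quantile normalization. For the change of the genotype difference at P14 less P6, Gja1 _f_at was 0.050 with quantile normalization, and Gjb2 and Gjb6 were -0.018 and -0.019 with array weights; at P23 less P14, Gja1 _f_at was -0.023 with quantile normalization. Leaving out 1 array, the genotype difference ran from -0.11 to 0.022 for Gjb2 at P14, and at P23 from -0.16 to 0.10 for Gja1 _f_at, -0.29 to 0.11 for Gja1 _r_at and -0.010 to 0.57 for Gjb6. Its change at P14 less P6 ran from -0.067 to 0.20 for Gja1 _r_at, -0.037 to 0.095 for Gjb2 and -0.013 to 0.14 for Gjb6. At P23 less P14 it ran from -0.12 to 0.27 for Gja1 _r_at, and at P23 less P6 from -0.080 to 0.18 for Gja1 _f_at and -0.037 to 0.36 for Gja1 _r_at.

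The replicate block left the Gjb2 difference at P23 at 0.57 (adjusted p = 0.098, limma). It changed 1 connexin call, that of Gja1 _r_at at P14 against P6 in WT skin (0.55, adjusted p = 0.014), which also passed under 5 other alternatives and without WT P6 replicate 4. At P23 each of 6 arrays correlated best with its own number, a hint from the data and not the design. Over all probe sets the genotype calls at P23 numbered 10, against 17 with quantile normalization, 44 with array weights, 2 with the stricter filter, 3 with the groups alone and 1 with the block, and ran from 2 without WT P23 replicate 3 to 16 without WT P23 replicate 2. At P14 they numbered 4, against 13 with no filter, 8 with no trend, 13 with array weights and 1 with the groups alone, and ran from 0 without WT P14 replicate 3 to 9 without DN-CLIM P14 replicate 3; at P6 they numbered 2, against 5 with no filter, 0 with the stricter filter, 1 with the groups alone, 4 with the block and 8 within arrays 4 and 5, and reached 5 without DN-CLIM P6 replicate 5. Dim readings, such as Gjb6 at P23, limit the size of a fold change.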
